A study of Mus musculus with 18 samples.

Results

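The genes described here are 36 transcripts of stromal, endothelial and mesothelial cells, adipocytes and the extracellular matrix, followed in sorted CD4 T cells of the mouse as a measure of RNA from such cells. They were chosen by symbol, with earlier results of these data known. Each was represented by the probe set that carried its symbol alone and had the highest mean over all arrays. Of the 36 genes, 34 had such a probe set, among 18193 genes in all, and Fbn1 and Cfd were not analysed here. They fall into 8 role groups: fibrillar and beaded collagens, basement membrane collagens, proteoglycans and matrix glycoproteins, metalloproteinase inhibitors, mesenchymal receptors and surface or secreted proteins, endothelial genes, mesothelial genes and adipocyte genes. A filter on dim signals, which kept a gene where at least 1 of 6 group means lay above an intensity of 65.9, passed 25 of the 34.

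The study measured RNA of CD4 T cells on 18 Affymetrix M430v2 arrays, in 6 groups of 3, with CD25+ cells called Treg and CD25- cells called Tconv. Fat Treg and fat Tconv were sorted out of epididymal abdominal fat of male C57Bl/6 mice aged 25 to 35 weeks, with 8 to 10 mice pooled for each array, as cells negative for B220, CD11b and CD8a and positive for CD4 and TCRb. Thymus Treg and thymus Tconv came from BDC2.5/NOD mice, which carry a transgenic T cell receptor on the NOD background, aged 4 to 6 weeks, with 3 to 6 mice pooled for each array and CD8a cells depleted before a sort without TCRb. Lymph node (LN) Treg and LN Tconv came from cervical, inguinal and mesenteric nodes of C57BL/6 mice aged 32 to 36 weeks, in pools of 3 to 6 mice, by the same gates as the thymus cells but without the depletion. Sex was stated for the fat mice only, and strain and age differ between thymus and the other tissues, so they cannot be told apart from tissue there. The RNA of every array was amplified in 2 rounds, and the p-values below measure the spread between pools, not between mice. In the fit of all arrays that spread was estimated per gene over all 6 groups. The fat groups varied most for the genes described here, so the quieter LN and thymus arrays can make the SE of fat over LN too small.

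Adipose tissue holds adipocytes within a stroma of fibroblasts and preadipocytes, which lay down fibrillar collagens and small proteoglycans, and a dense bed of capillaries whose endothelium rests on a basement membrane of type IV collagen. Epididymal fat hangs free in the peritoneal cavity and is wrapped in mesothelium, a sheet of flat cells with its own keratin and uroplakin genes. T cells of such tissue are commonly released by enzymatic digestion and then sorted, and most matrix genes are known as products of mesenchymal cells and not of T lymphocytes.

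Array medians were 76.9 to 82.2 in the 6 fat arrays and 57.9 to 63.0 in the other 12, so fat was set against LN after quantile normalization of all arrays, which left a median change over all genes of 0.01 (log2) in Treg and -0.03 in Tconv. The labels of the sorted cells held for their defining transcripts. Foxp3, the lineage factor of regulatory T cells, measured 1214 to 1367 in fat Treg, 53.7 to 116 in fat Tconv, 599 to 1076 in thymus Treg, 25.2 to 46.2 in thymus Tconv, 936 to 1005 in LN Treg and 38.9 to 53.8 in LN Tconv, and 12 T cell identity genes summed to 25330 to 27500 in fat Treg and 28410 to 30360 in LN Treg. The fat arrays numbered 1, of Treg and of Tconv, stood apart from the other fat arrays: array 1 was the highest of 3 in both cell types for 28 of the 34 genes, where 22.7% of all genes with a probe set did the same. The counts of called genes in fat are therefore also given without them. In pooled RNA, fewer cells of a type and less RNA per cell cannot be told apart.

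The sequence upstream of 4 genes is shown because these genes stand for 3 role groups and were higher in fat or, for Adipoq, had groups that did not overlap. They are a pair of fibrillar collagen chains, an endothelial growth factor receptor and an adipocyte hormone. Each line gives the 150 bases that end just before the RefSeq transcript start (GRCm38.p6), 5′ to 3′ on the gene's strand, with matches on either strand to 3 short promoter motifs in capitals: TATAAA (the TATA box), the letters CCAAT (the CCAAT box) and the letters GGGCGG (the GC box). Col3a1 lies at chr1:45311388-45311537 on the plus strand, Col1a2 at chr6:4505468-4505617 on the plus strand, Kdr at chr5:75978456-75978605 on the minus strand and Adipoq at chr16:23146386-23146535 on the plus strand.
Col3a1: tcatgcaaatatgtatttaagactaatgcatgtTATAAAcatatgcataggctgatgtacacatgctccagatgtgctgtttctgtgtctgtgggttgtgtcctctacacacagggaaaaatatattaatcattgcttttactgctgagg
Col1a2: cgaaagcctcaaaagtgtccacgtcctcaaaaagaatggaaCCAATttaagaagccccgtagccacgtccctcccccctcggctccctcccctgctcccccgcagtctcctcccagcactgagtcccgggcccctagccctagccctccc
Kdr: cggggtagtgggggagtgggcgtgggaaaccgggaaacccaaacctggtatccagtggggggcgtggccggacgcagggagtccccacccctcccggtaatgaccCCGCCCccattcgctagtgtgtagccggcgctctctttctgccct
Adipoq: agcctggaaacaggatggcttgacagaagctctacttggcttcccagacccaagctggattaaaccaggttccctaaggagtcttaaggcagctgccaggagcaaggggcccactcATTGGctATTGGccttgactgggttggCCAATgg
Of the 34 measured genes, 18 had upstream sequence in the RefSeq table, in 21 windows of 250 bases. TATAAA was in the windows of 1 gene, Col3a1, and in 12.4% of 32851 windows of the same length over all genes. CCAAT was in 7 of the 21 windows, of 6 genes, and in 33.8% of all windows. GGGCGG was in 11 of the 21 windows, of 8 genes, and in 32.7% of all windows. These matches describe letters only.

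The first comparison asked how far the transcripts differ between T cells of fat and of LN. A gene was called at an adjusted p under 0.05. Over all 34 measured genes, fitted with no filter, fat Treg had higher levels of 23 and lower levels of 2 than LN Treg, where 13.4% of 18193 genes were higher and 14.6% lower. The median change of the 34 was 1.36 (log2), against 0.01 over all genes, and it was 1.13 with every intensity below 28.3 raised to that floor, the 25th percentile of all values. Fat Tconv had higher levels of 19 of the 34 and a lower level of none than LN Tconv, where 8.77% of genes were higher and 9.62% lower. Here the median change was 1.18, or 0.75 with the floor, against -0.03 over all genes. The genes were chosen with earlier results of these data known, so these counts and medians are a description only. The changes and adjusted p-values below come from the fit of the 12834 genes that passed the filter, of which 16.3% were higher and 18.2% lower in fat Treg, and 11.3% higher and 11.6% lower in fat Tconv. That fit called 20 of the 25 genes as higher and 1, Thy1, as lower in Treg, and 18 as higher in Tconv. Of these 25, 10 passed the filter through a fat group alone (Col1a1, Col3a1, Col5a2, Col4a1, Col4a2, Dcn, Lum, Serping1, Tek and Car3), so they had to be brighter there and the counts over the 25 are a description only. Of the 15 that passed through another group too, 10 were higher and 1 lower in Treg, and 8 were higher in Tconv. Of the 34, 11 genes in Treg and 7 in Tconv were at least 4-fold higher. The share of all genes at that threshold was not counted, so these counts are a description only. The largest change, with 1 probe set a gene, was that of Dcn (decorin), 39.2-fold in Treg and 31.4-fold in Tconv. Without the fat arrays numbered 1, 19 of the 25 were called in Treg, all higher, and 17 in Tconv, all higher, where 14.1% and 9.42% of genes tested were higher. With the array run as a block, 22 were higher in Treg and 19 in Tconv, where 20.1% and 14.5% of genes tested were higher. In a fit of only the groups compared, the calls of Col1a1 (adjusted p = 0.0718), Col6a2 (0.0776) and Col15a1 (0.0994) in Tconv were lost. The calls in Treg held in that fit.

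**Figure D1:**
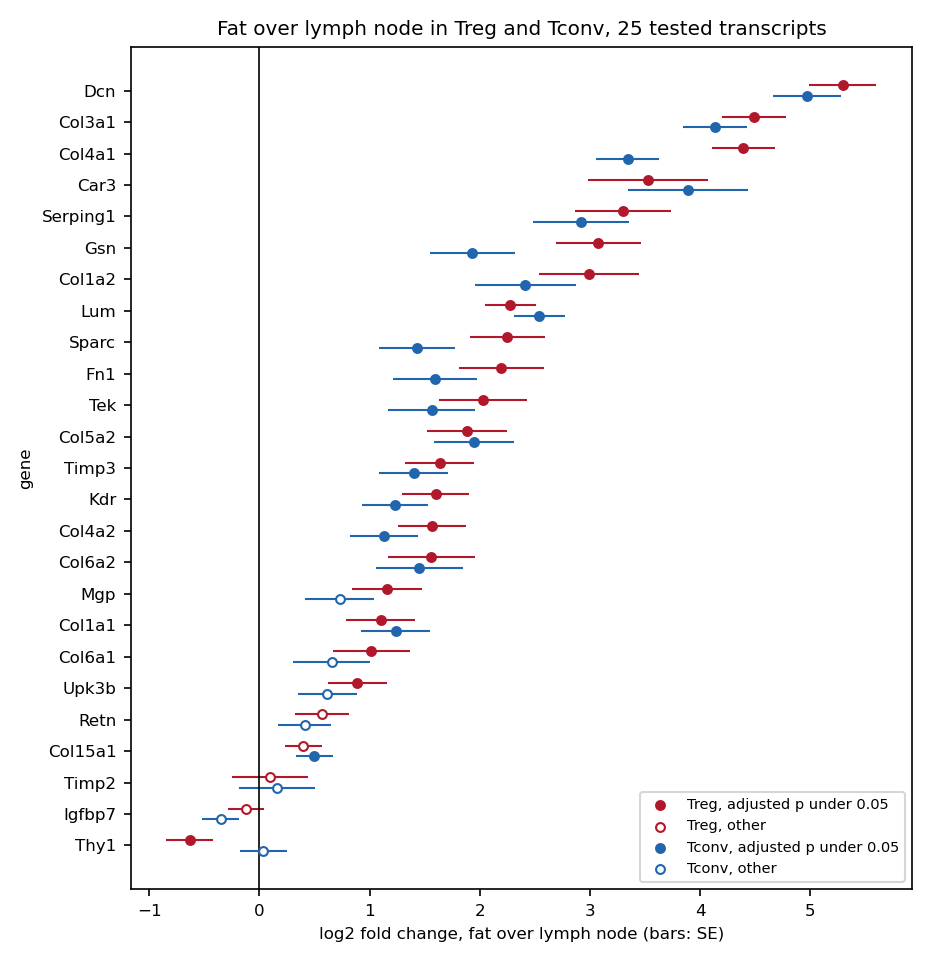
Log2 fold change (x axis) of fat over LN for each of the 25 tested genes (y axis, ordered by the change in Treg), with Treg above Tconv in each row; bars give the SE (n = 3 arrays a group). Filled points passed an adjusted p of 0.05: all lie right of 0 except that of Thy1 in Treg, and Dcn, Col3a1 and Col4a1 lie furthest right in Treg.

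All 3 fat arrays lay above all 3 LN arrays for 26 of the 34 measured genes in Treg and for 21 in Tconv, where 21.3% and 15% of all genes with a probe set did so. Within each of the 3 array runs that held fat and LN arrays, taken from neighbouring array numbers in the labels, fat was above LN for 22 of the 25 tested genes in Treg and for 20 in Tconv. The 20 genes called higher in Treg and the 18 in Tconv were among them, but they were called on these same arrays. The share over all genes was not counted, so these counts are a description only. The median difference of the 25 in Treg was 1.51 (log2), 1.33 and 2.38 in the 3 runs, and in Tconv it was 1.33, 0.68 and 2.30. The largest of these belonged to the run that held the fat arrays numbered 1. Over all genes tested, the medians in the same runs were 0.02, 0.04 and -0.04 in Treg and -0.01, -0.05 and -0.03 in Tconv. As 10 of the 25 passed the filter through a fat group alone, the medians of the 25 are a description only.

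**Figure D2:**
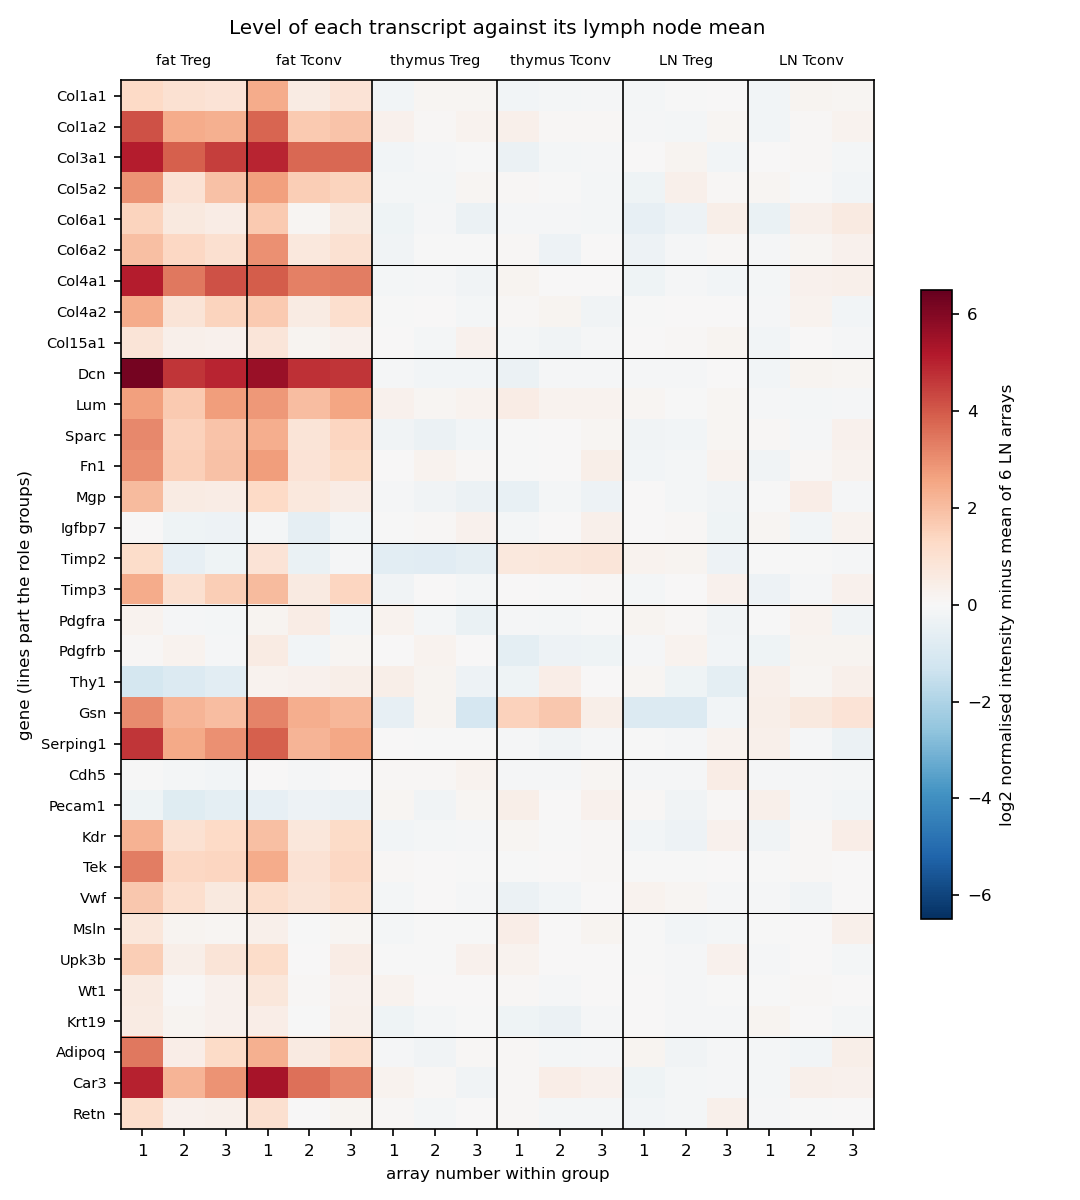
Each row is a gene, each column an array (numbered within its group), and the colour gives the log2 normalised intensity minus the mean of that gene over the 6 LN arrays. The fat columns stand out for the collagens, Dcn, Gsn, Serping1 and Car3, array 1 of both fat groups is the darkest for most genes, and the thymus columns stay near the LN level except for Thy1, Gsn and Timp2.

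Fibrillar and beaded collagens form the tensile fibres of connective tissue, and all 6 measured genes were higher in fat Treg and 5 of 6 in fat Tconv. Of all genes tested, 16.3% and 11.3% were higher. Col1a1, Col3a1 and Col5a2 passed the filter through a fat group alone, so the counts are a description only. Col3a1, the chain of type III collagen, had an intensity of 1017, 432 and 676 in the 3 fat Treg arrays, against 30.2, 32.9 and 26.4 in LN Treg. It measured 911, 387 and 392 in fat Tconv, against 30.03, 31.4 and 26.97 in LN Tconv. Every fat array was thus far above every LN array, with array 1 highest in both cell types. The change was 22.5-fold in Treg (log2 4.49 ± 0.29 SE, adjusted p = 3.68e-09) and 17.6-fold in Tconv (log2 4.13 ± 0.29 SE, adjusted p = 2.59e-08). Col1a2, the alpha-2 chain of type I collagen, had 1274, 379.8 and 355 in fat Treg, against 67.97, 65.6 and 76.4 in LN Treg. In Tconv the values were 970, 232 and 256 in fat, against 62.04, 74.03 and 82.8 in LN, and array 1 held most of the signal in both cell types. The change was 7.96-fold in Treg (log2 2.99 ± 0.45 SE, adjusted p = 7.24e-05) and 5.33-fold in Tconv (log2 2.42 ± 0.45 SE, adjusted p = 0.000915). Without array 1 the change of Col1a2 was 5.26-fold in Treg and 3.37-fold in Tconv.

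Col1a1, the partner chain of Col1a2, had 118, 94.6 and 88.4 in fat Treg and 44.5, 46.7 and 48.04 in LN Treg, with no overlap (log2 1.10, adjusted p = 0.0111). In Tconv it measured 258, 70.1 and 88.9 in fat and 42.9, 54.8 and 52.3 in LN, where the highest fat value was again array 1 (log2 1.24, adjusted p = 0.00799). Col5a2, a chain of the type V collagen that sits inside type I fibrils, had 222, 55.4 and 108 in fat Treg and 23.5, 36.6 and 30.4 in LN Treg (log2 1.89, adjusted p = 0.000672). It had 181, 88.98 and 79.2 in fat Tconv and 31.4, 27.98 and 25.3 in LN Tconv (log2 1.95, adjusted p = 0.000892), so the groups were apart in both cell types. Col6a1 and Col6a2 encode chains of type VI collagen, a beaded filament that surrounds adipocytes. Col6a2 had 431, 287 and 235 in fat Treg and 90.8, 106 and 118 in LN Treg (log2 1.56, adjusted p = 0.00527). It had 881, 183 and 225 in fat Tconv and 106, 122 and 138 in LN Tconv (log2 1.45, adjusted p = 0.0127), where array 1 was several times the other fat arrays and the change without it was 0.75. Col6a1 had 437, 250.1 and 225 in fat Treg and 111, 129 and 206 in LN Treg (log2 1.02, adjusted p = 0.0331). In Tconv, with 521, 173 and 244 in fat and 118, 199.5 and 239 in LN, the groups overlapped and Col6a1 did not pass the test (log2 0.66, adjusted p = 0.205). With the array run as a block Col6a1 was called in Tconv (adjusted p = 0.0356). The call of Col6a1 in Treg was lost without array 1 of fat Treg (adjusted p = 0.164) and without array 1 (0.13) or 2 (0.0977) of LN Treg.

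Basement membrane collagens underlie endothelium and surround adipocytes. Col4a1, a chain of type IV collagen, had 666, 210.1 and 346 in fat Treg, against 16.4, 18.5 and 17.4 in LN Treg. In Tconv it had 302, 192 and 199 in fat, against 18.3, 24.1 and 24.98 in LN. No fat array came near the LN range, and the change was 20.98-fold in Treg (log2 4.39 ± 0.28 SE, adjusted p = 3.92e-09) and 10.2-fold in Tconv (log2 3.34 ± 0.28 SE, adjusted p = 2.62e-07). All LN arrays of Col4a1 lay below the floor of 28.3, and with the floor the change was 12.9-fold in Treg and 7.99-fold in Tconv. Col4a2, its partner chain and direct neighbour on chromosome 8, had 119, 40.3 and 61.04 in fat Treg and 21.5, 22.8 and 22.9 in LN Treg (log2 1.57, adjusted p = 0.000731). It had 72.97, 32.4 and 47.3 in fat Tconv and 20.9, 26.3 and 19.3 in LN Tconv (log2 1.13, adjusted p = 0.0126). Col15a1, a collagen that links basement membranes to the fibres beneath, had 158, 110.4 and 108 in fat Treg and 89.2, 92.2 and 101 in LN Treg and did not pass the test there (log2 0.40, adjusted p = 0.0794, or 0.0433 with the array run as a block). In Tconv it was higher, with 152, 98.6 and 109 in fat and 78.5, 89.2 and 82.5 in LN (log2 0.50, adjusted p = 0.0414). That call of Col15a1 was lost when any 1 of the fat or LN Tconv arrays other than fat array 2 was left out (adjusted p = 0.0573 to 0.211), and that of Col4a2 in Tconv was lost without fat array 1 (adjusted p = 0.0794). The LN arrays of Col4a2 also lay below the floor, with which its change was 1.23 in Treg (adjusted p = 0.00341) and 0.77 in Tconv, where the call was lost (adjusted p = 0.0691).

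Of the proteoglycans and matrix glycoproteins, 5 of 6 measured genes were higher in fat Treg and 4 in fat Tconv, where 16.3% and 11.3% of genes tested were higher. Dcn and Lum passed the filter through a fat group alone, so these counts too are a description only. Dcn, the small proteoglycan that coats collagen fibrils, had 3953, 1304 and 1617 in fat Treg, against 49.7, 50.8 and 54.7 in LN Treg. It had 2600, 1443 and 1316 in fat Tconv, against 46.7, 59 and 58.2 in LN Tconv. The lowest fat array was far above the highest LN array in both cell types, and the change was 39.2-fold in Treg (log2 5.29 ± 0.31 SE, adjusted p = 1.14e-09) and 31.4-fold in Tconv (log2 4.97 ± 0.31 SE, adjusted p = 5.51e-09). Lum, the related proteoglycan lumican and the neighbour of Dcn on chromosome 10, had 81.03, 40.3 and 82.97 in fat Treg and 13.5, 12.6 and 13.97 in LN Treg (log2 2.28, adjusted p = 8.07e-07). It had 87.9, 50.7 and 74.3 in fat Tconv and 12.04, 11.5 and 12.1 in LN Tconv (log2 2.54, adjusted p = 5.23e-07). With the floor, below which all LN arrays of Lum lay, its change was 1.19 in Treg (adjusted p = 0.000477) and 1.29 in Tconv (adjusted p = 0.000426). Lum was among the few genes for which array 1 was not the highest fat Treg array.

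Sparc, a collagen-binding protein secreted by stromal and endothelial cells, had 695, 228 and 292 in fat Treg and 67.9, 72.2 and 87.5 in LN Treg (log2 2.25, adjusted p = 7.27e-05). It had 409, 146 and 209.6 in fat Tconv and 84.7, 76.3 and 99.03 in LN Tconv (log2 1.43, adjusted p = 0.00568). Fn1, fibronectin, which links cells to collagen through integrins, had 758, 273 and 347 in fat Treg and 80.4, 85.1 and 109 in LN Treg (log2 2.20, adjusted p = 0.000274). It had 613, 168 and 215 in fat Tconv and 77.96, 97.5 and 107 in LN Tconv (log2 1.59, adjusted p = 0.00594). For both genes the groups were apart, and array 1 was more than any other fat array of its cell type. Mgp, matrix Gla protein, an inhibitor of calcification, had 303, 106 and 102 in fat Treg and 72.9, 65.4 and 61.6 in LN Treg (log2 1.16, adjusted p = 0.00848). In Tconv Mgp had 179, 117 and 101 in fat and 70.4, 96.7 and 68.3 in LN and did not pass the test (log2 0.73, adjusted p = 0.11). Igfbp7, a secreted binding protein of vessel walls, had 133, 107 and 105 in fat Treg and 130.3, 137 and 107 in LN Treg, which overlapped (log2 -0.12, adjusted p = 0.607). A further probe set of Igfbp7 was 2.06 (log2) higher in fat Treg and 1.43 higher in fat Tconv, so the probe sets of this gene disagreed.

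Metalloproteinase inhibitors slow the breakdown of matrix. Timp3, which is bound to the matrix, had 472, 185 and 273 in fat Treg and 81.1, 89.95 and 109 in LN Treg (log2 1.64, adjusted p = 0.000612). It had 366, 136 and 237 in fat Tconv and 70.1, 85.2 and 107 in LN Tconv (log2 1.40, adjusted p = 0.00359), so all fat arrays lay above all LN arrays. Timp2, the soluble inhibitor, was present in every group. It had 3715, 1155 and 1345 in fat Treg and 1943, 1863 and 1299 in LN Treg, where array 1 was above the LN range and the other fat arrays were below or within it (log2 0.10, adjusted p = 0.85). In Tconv the values were 3011, 1235 and 1574 in fat and 1639, 1614 and 1586 in LN (log2 0.16, adjusted p = 0.796).

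Among the mesenchymal genes, Serping1 encodes the secreted C1 inhibitor of complement. It had 729.7, 161 and 234 in fat Treg, against 29.4, 28.3 and 34.3 in LN Treg, and 442, 137 and 166 in fat Tconv, against 37.1, 28.02 and 22.4 in LN Tconv. The groups were apart, and the change was 9.87-fold in Treg (log2 3.30 ± 0.43 SE, adjusted p = 1.59e-05) and 7.57-fold in Tconv (log2 2.92 ± 0.43 SE, adjusted p = 0.000108). Without array 1 of fat Treg the change of Serping1 in Treg was 6.34-fold. Gsn encodes gelsolin, an actin-severing protein with a secreted form. Its values were 6027, 3408 and 2906 in fat Treg, against 392, 398 and 637 in LN Treg, and 6762, 3785 and 3258 in fat Tconv, against 962, 1139 and 1371 in LN Tconv. Fat was 8.44-fold higher in Treg (log2 3.08 ± 0.39 SE, adjusted p = 9.38e-06) and 3.81-fold higher in Tconv (log2 1.93 ± 0.39 SE, adjusted p = 0.00149). Thy1, a surface glycoprotein of mouse T cells and of fibroblasts, went the other way in Treg, with 876, 1040 and 1217 in fat and 2069, 1577 and 1259 in LN and no overlap (log2 -0.63 ± 0.21 SE, adjusted p = 0.0299). In Tconv it had 2250, 2356 and 2509 in fat and 2379, 2136 and 2425 in LN (log2 0.04, adjusted p = 0.927). The lower Thy1 in fat Treg was not called on the intensities as deposited (log2 -0.28, adjusted p = 0.316). Nor was it called without array 1 (adjusted p = 0.125) or 2 (0.0649) of fat Treg, without array 1 (0.154) or 2 (0.0653) of LN Treg, or without the fat arrays numbered 1 of both cell types (0.128). Pdgfra and Pdgfrb, the receptors by which fibroblasts and pericytes are often recognised, did not pass the filter. Pdgfra measured 29.8 to 48.0 over the 6 fat arrays and 24.6 to 39.9 over the other 12, and Pdgfrb 37.7 to 61.8 and 28.2 to 50.6. A further probe set of Pdgfra was 1.78 (log2) higher in fat Treg and 1.22 higher in fat Tconv, and one of Pdgfrb 1.44 and 0.99 higher.

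The endothelial genes that passed the filter were Kdr and Tek, of which Tek passed through a fat group alone, and both were higher in both cell types. Kdr, a receptor of vascular endothelial growth factor, had 508, 210.4 and 260.3 in fat Treg and 92.9, 83.7 and 129 in LN Treg (log2 1.60, adjusted p = 0.000521). It had 418, 179.9 and 254 in fat Tconv and 92.4, 112 and 144 in LN Tconv (log2 1.23, adjusted p = 0.00664). Tek, the receptor of angiopoietins, had 175, 44.2 and 45.6 in fat Treg and 17.04, 17.2 and 17.8 in LN Treg (log2 2.03, adjusted p = 0.000744). It had 95.4, 34.4 and 45.3 in fat Tconv and 17.3, 18.8 and 17.6 in LN Tconv (log2 1.56, adjusted p = 0.00847), and without array 1 of fat Tconv this call of Tek was lost (adjusted p = 0.0558). All LN arrays of Tek lay below the floor, with which its change was 1.32 in Treg (adjusted p = 0.0155) and 0.91 in Tconv, where the call was lost (adjusted p = 0.116). Without array 1 of fat Treg its change in Treg was 1.37. Tek lay within a narrow range in all 12 LN and thymus arrays, 17.04 to 18.8, and the lowest fat array had 34.4. Vwf, the clotting factor stored by endothelium, did not pass the filter. Its values were 48.97, 31.4 and 23.3 in fat Treg and 17.3, 16.3 and 14 in LN Treg, and 32.1, 26.1 and 32.6 in fat Tconv and 13.8, 12.6 and 15.2 in LN Tconv, so fat was apart from LN in both cell types. The junction genes Cdh5 and Pecam1, also below the filter, were not higher: Cdh5 overlapped between fat and LN, and Pecam1 was lower in every fat array than in any LN or thymus array. Cdh5 measured 22.8 to 26.4 over the fat arrays and 23.5 to 35.6 over the other 12, and Pecam1 32.9 to 47.4 and 48.8 to 75.6. A second probe set of Cdh5 was 0.74 (log2) higher in fat Treg and 0.64 higher in fat Tconv.

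Of 4 mesothelial genes, Upk3b, a uroplakin, passed the filter. It had 202, 88.1 and 123 in fat Treg and 66.8, 63.1 and 81.5 in LN Treg and was higher there (log2 0.89, adjusted p = 0.0158). In Tconv it had 153, 68.6 and 94.4 in fat and 64.02, 69.9 and 61.9 in LN and did not pass the test (log2 0.61, adjusted p = 0.114). The call of Upk3b in Treg was lost without array 1 of fat Treg (adjusted p = 0.106) or array 2 of LN Treg (0.06), and without array 2 of fat Tconv it was called in Tconv (0.0252). Msln (mesothelin), the transcription factor gene Wt1 and the keratin gene Krt19 were dim throughout. Msln had 19.5 to 32.7 over the fat arrays and 17.4 to 27.1 over the other 12, Wt1 had 22.8 to 36.0 and 20.9 to 25.3, and Krt19 had 14.1 to 20.6 and 10.9 to 16.5. In Treg, all 3 fat arrays were above all 3 LN arrays for each of these 3 genes, and in Tconv for none of them. Over the 9 genes below the filter this held for 5 in Treg and for 2 in Tconv, where 15.2% and 9.72% of all genes below the filter did the same.

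Among the adipocyte genes, Car3, a carbonic anhydrase abundant in adipocytes, had 627, 91.9 and 152 in fat Treg, against 16.4, 18.4 and 18.9 in LN Treg. It had 829, 239 and 179 in fat Tconv, against 17.9, 24.9 and 24.3 in LN Tconv. The lowest fat array exceeded every LN array, and fat was 11.6-fold higher in Treg (log2 3.53 ± 0.54 SE, adjusted p = 8.27e-05) and 14.8-fold higher in Tconv (log2 3.89 ± 0.54 SE, adjusted p = 5.75e-05). All LN arrays of Car3 lay below the floor, and with it the change was 7.3-fold in Treg and 11.6-fold in Tconv. Without array 1 it was 6.63-fold in Treg and 9.34-fold in Tconv. Adipoq, the adipocyte hormone adiponectin, did not pass the filter, with 166, 20.3 and 36 in fat Treg and 17.4, 13.1 and 14.5 in LN Treg, and 74.9, 22.9 and 32.5 in fat Tconv and 13.9, 13.5 and 19.9 in LN Tconv. Fat was apart from LN in both cell types, and array 1 was by far the highest fat array. Retn, the hormone resistin, had 225, 122 and 129 in fat Treg and 90.5, 94.8 and 127 in LN Treg, and 207, 104 and 114 in fat Tconv and 97.4, 102 and 105 in LN Tconv. It did not pass the test in Treg (adjusted p = 0.0804) or in Tconv (adjusted p = 0.254). Retn was called as higher in Treg with the array run as a block (adjusted p = 0.0191), without array 2 of fat Treg (0.0499) and without array 3 of LN Treg (0.0484).

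Other genes of the same tissues, listed by cell type with earlier results of these data known, were counted over all their measured members in the fit with no filter, where 13.4% of genes were higher in fat Treg and 8.77% in fat Tconv. Of 43 genes of the matrix and fibroblasts, 24 were higher and 1 lower in fat Treg than in LN Treg, with a median change of 0.69 (log2), and 15 were higher and 1 lower in Tconv (median 0.28). Named with their log2 changes in Treg, the highest were Efemp1 (6.69), Fstl1 (5.64) and Ogn (5.00), all secreted matrix proteins, and the lower one was Dpp4 (-3.22), a peptidase that T cells also carry. Of 22 other endothelial genes, 12 were higher in Treg (median 0.67) and 7 in Tconv (median 0.35), led in Treg by Fabp4 (7.93), Cd36 (4.57) and Mmrn2 (3.42). Fabp4 and Cd36, a fatty acid carrier and a fatty acid receptor, also stand in the adipocyte list, where 5 of 24 were higher in Treg (median 0.15), Lpl (lipoprotein lipase, 4.84) among them, and 3 in Tconv (median 0.10). Of 12 pericyte and smooth muscle genes 6 were higher in Treg (median 0.45) and 4 in Tconv (median 0.33), with Rgs5 at 3.48 and Acta2 at 1.62 in Treg. Of 16 other mesothelial and epithelial genes 9 were higher in Treg (median 0.56), with Lrrn4 at 3.35, and 2 in Tconv (median 0.23). The shares of the adipocyte list in both cell types and of the mesothelial list in Tconv were thus near those of all genes.

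Markers of other blood cells were set beside these in the same fit. Of 23 macrophage and monocyte markers, 13 were higher and 1 lower in fat Treg (median change 1.04, log2), and 4 were higher in fat Tconv (median 0.66). The haemoglobin scavenger receptor gene Cd163 (4.09), the complement gene C1qb (3.27) and the mannose receptor gene Mrc1 (2.66) were the largest rises in Treg, and the protease gene Ctss fell (-2.25). The mean log2 intensity of that list was 7.57, 6.501 and 7.65 in fat Treg, against 6.00, 6.03 and 6.15 in LN Treg, and 7.12, 6.30 and 7.19 in fat Tconv, against 6.03, 6.15 and 6.14 in LN Tconv, so that every fat array was above every LN array of its cell type. The summed intensity, which a few bright markers can carry, was 7992, 3164 and 9727 in fat Treg, against 10110, 9545 and 10580 in LN Treg. It was 7513, 5343 and 8761 in fat Tconv, against 7846, 8023 and 8206 in LN Tconv, and overlapped between fat and LN in both cell types. Of 12 T cell identity genes none was higher and 1 was lower in Treg, and 1 was higher in Tconv. Of 11 B cell markers 3 were higher and 3 lower in Treg, and 2 higher and 1 lower in Tconv. Of 11 NK and cytotoxic markers 2 were higher and 1 lower in Treg, and 4 higher and 3 lower in Tconv, and of 5 red cell genes 2 were higher in each cell type. The part of these cells in the changes of the matrix genes was not tested.

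The fat arrays differed among themselves far more than those of LN or thymus. The ratio of the highest to the lowest array, as a median over the 34 genes, was 2.20 in fat Treg, 2.16 in fat Tconv, 1.15 in thymus Treg, 1.18 in thymus Tconv, 1.26 in LN Treg and 1.30 in LN Tconv. The summed intensity of the 34 genes was 24380, 10680 and 11690 in fat Treg and 23150, 12010 and 12380 in fat Tconv. It lay between 4670 and 5712 in thymus Treg, 7563 and 9392 in thymus Tconv, 5035 and 5962 in LN Treg, and 6571 and 7299 in LN Tconv. Every fat array was above every LN and thymus array, and array 1 was 2.18 times the mean of the other fat Treg arrays and 1.90 times that of the other fat Tconv arrays. Outside fat these sums rested largely on Gsn, Thy1 and Timp2, and in fat these genes were a large part of them too. Their geometric means were 463, 1602 and 1675 in LN Treg and 1685, 2025 and 2734 in thymus Tconv. They were 3908, 1035 and 1794 in fat Treg and 4369, 2369 and 1802 in fat Tconv. The sums of the 34 genes are thus not a measure of the matrix genes alone. The same genes carried most of the sums of the mesenchymal genes and the metalloproteinase inhibitors.

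**Figure D3:**
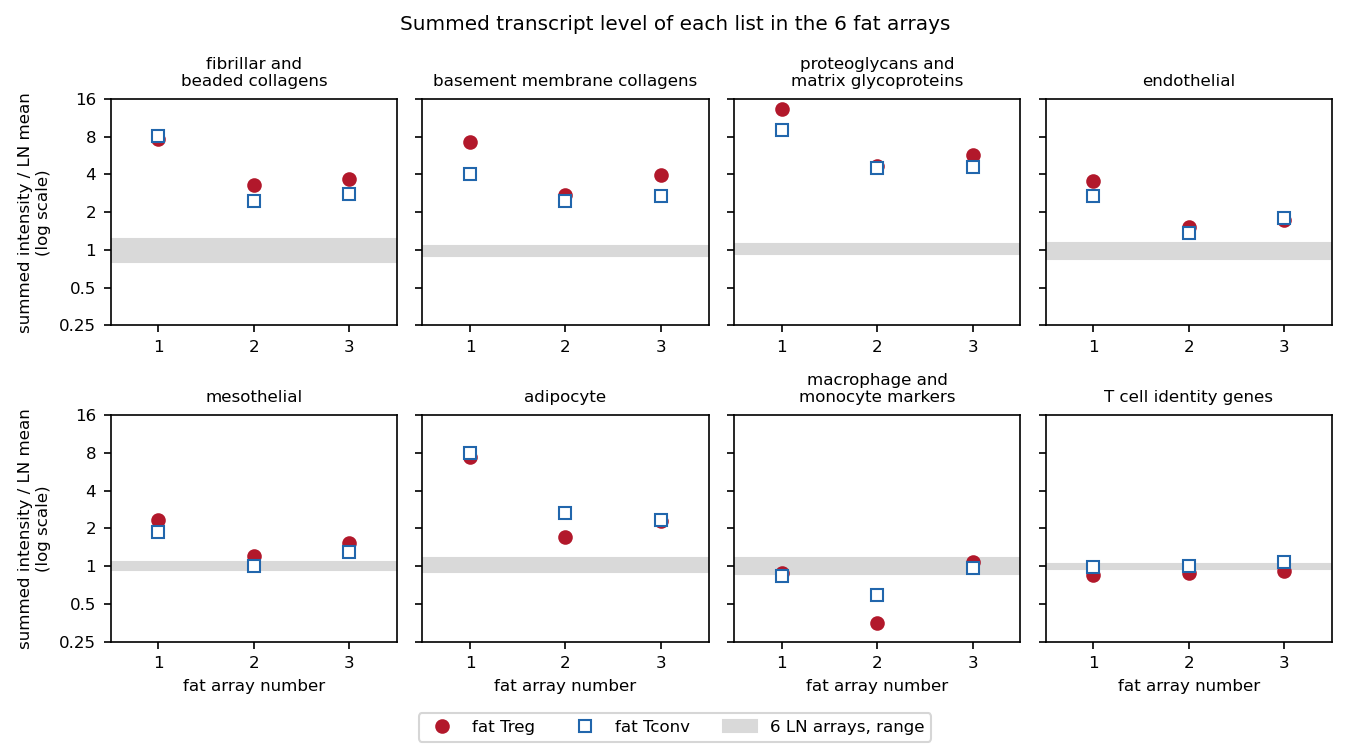
Each panel gives the summed normalised intensity of a gene list in the fat arrays numbered 1 to 3 (x axis), divided by the mean of the 6 LN arrays (y axis, log scale); filled circles are fat Treg, open squares fat Tconv, and the grey band is the range of the LN arrays. Array 1 is the highest in each of the 6 stromal, endothelial, mesothelial and adipocyte panels, the macrophage list is lowest in array 2, and the T cell list stays between 25330 and 32230 in sum, near the LN band.

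Array 1 was the highest fat array of its cell type in each role group, by differing ratios. The adipocyte genes summed to 1017, 235 and 317 in fat Treg and 1111, 366 and 325 in fat Tconv, where array 1 was 3.69 and 3.22 times the mean of the others. For the fibrillar and beaded collagens the ratio was 2.20 in Treg and 3.08 in Tconv, for the basement membrane collagens 2.15 and 1.55, and for the endothelial genes 2.20 and 1.72. It was 2.57 and 1.98 for the proteoglycans and glycoproteins, 2.83 and 2.12 for the metalloproteinase inhibitors, 1.71 and 1.63 for the mesothelial genes and 1.69 and 1.54 for the mesenchymal genes. For the 43 other measured genes of the matrix and fibroblasts the ratio was 2.37 in Treg and 2.26 in Tconv. The macrophage list gave 1.24 and 1.07 and the T cell identity list 0.94 and 0.95. Over all genes tested, the median log2 difference of array 1 from the mean of the others was 0.00 in Treg and 0.07 in Tconv, against 0.92 and 0.93 over the 34 genes.

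The next comparison set Treg against Tconv within fat, on the intensities as deposited. Thy1 was lower in fat Treg, with 1012, 1175 and 1454, against 2503, 2779 and 3056 in fat Tconv, and the groups were far apart (log2 -1.21 ± 0.23 SE, adjusted p = 0.00161). It was the 1 gene of the 25 that was called, where 5.24% of genes tested were lower and 6.36% higher. Treg and Tconv arrays of the same number varied together in every tissue, and with that number as a block 8 of the 25 were called, 6 higher and 2 lower in Treg, where 10.3% of genes tested were higher and 10.5% lower. The median change of the 25 was 0.19 (log2), against 0.01 over all genes. Without the fat pair numbered 1 and without the block, 2 of the 25 were called, both lower, where 5.03% of genes tested were lower.

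The 6 genes that were higher in fat Treg with the block were Col1a2, Col4a1, Col4a2, Sparc, Fn1 and Tek. Sparc had 797, 249.7 and 332 in fat Treg and 414, 175 and 247 in fat Tconv, so that the groups overlapped but each pair differed the same way (log2 differences of 0.95, 0.51 and 0.43, adjusted p = 0.00224 with the block and 0.311 without). Col1a2 differed by 0.60, 0.56 and 0.43 in the 3 pairs (adjusted p = 0.00408 with the block and 0.609 without), and Fn1 by 0.48, 0.54 and 0.64 (adjusted p = 0.00454 and 0.464). The other probe set of Fn1, dim in fat (geometric means of 14.75 in Treg and 14.52 in Tconv), differed by only 0.04 (log2). The pairs of Col4a2 differed by 0.66, 0.39 and 0.38 (adjusted p = 0.0138 and 0.46) and those of Tek by 0.81, 0.43 and 0.02 (adjusted p = 0.0446 and 0.658). Col4a1 differed by 1.30, -0.01 and 0.75, with 1 pair at about equal levels (adjusted p = 0.0243 and 0.172). Car3, at 710.5, 108 and 175 in fat Treg and 853, 289 and 211 in fat Tconv, was lower in Treg in each pair, with log2 differences of -0.26, -1.41 and -0.27 (adjusted p = 0.0412 and 0.584). That holds for the probe set used here only. The further probe sets of Car3 went the other way, by 0.22, 0.10 and 0.21 (log2), and the last of these was also higher in fat than in LN. Leaving out 1 array, without the block, made a call of Col4a1 (fat Treg array 2, adjusted p = 0.00537), of Car3 (fat Treg array 1, 0.0326) and of Fn1 (fat Tconv array 1, 0.0427). With the same block, 11 of the 33 other matrix genes were higher and 1 lower, and 7 of the 22 macrophage markers were higher and 1 lower, and the part of such cells in the difference was not tested.

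**Figure D4:**
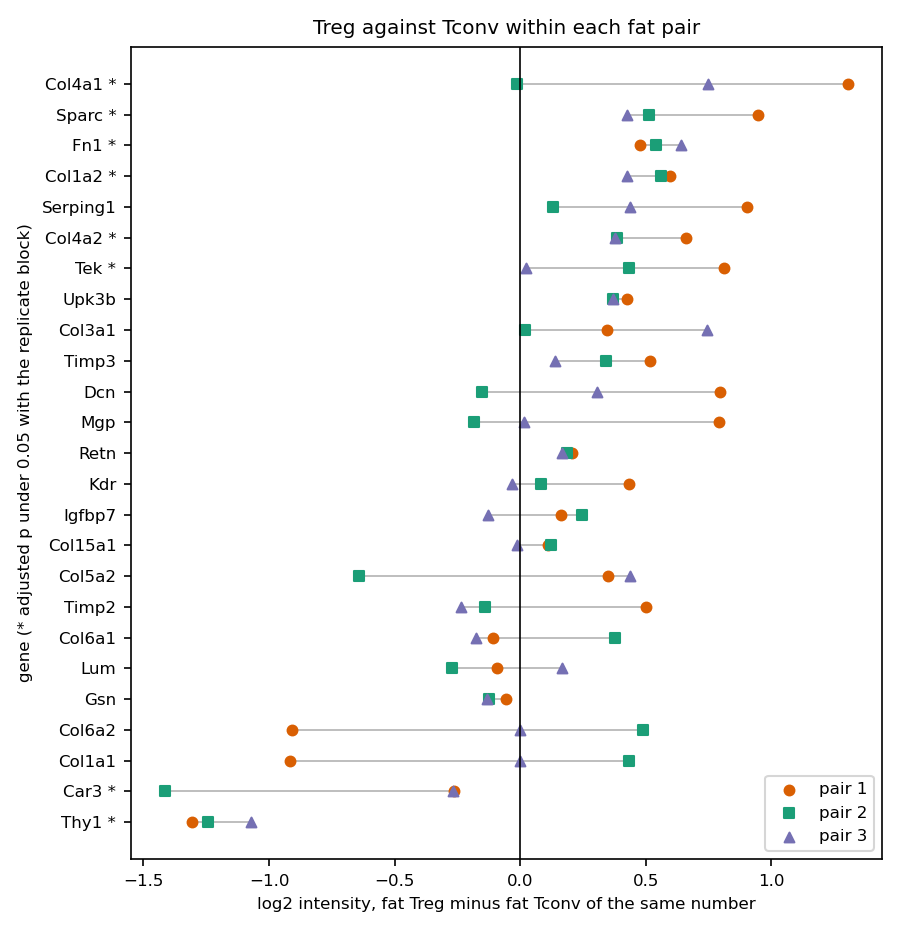
Log2 intensity of fat Treg minus fat Tconv (x axis) for each of the 25 tested genes (y axis, ordered by the mean), with a point for each of the 3 pairs of the same array number. Of the 25, 10 lie right of 0 in all 3 pairs and 3, Thy1, Car3 and Gsn, lie left of 0 in all 3. The share over all genes was not counted, so these counts are a description only. The further probe sets of Gsn had mean differences of 0.50, 0.27, -0.003, -0.15 and -0.45. Stars mark the 8 genes called with the replicate block.

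In thymus, 2 of the 25 were called between Treg and Tconv, and both were lower in Treg, where 1.82% of genes tested were lower and 3.3% higher. Gsn had 471, 779.6 and 329 in thymus Treg and 1827, 2239 and 932 in thymus Tconv, which did not overlap (log2 -1.66 ± 0.36 SE, adjusted p = 0.00862). Timp2 had 988, 922 and 1060 in thymus Treg and 2356, 2422 and 2770 in thymus Tconv, with a tight spread in each (log2 -1.34 ± 0.38 SE, adjusted p = 0.0473). The spread per gene was estimated over all 18 arrays, the variable fat arrays included, and with the replicate block the adjusted p was 2.95e-06 for Gsn and 0.000127 for Timp2, where 5.46% of genes tested were lower. Leaving out any 1 thymus array ended the call of Timp2 (adjusted p = 0.0597 to 0.142), and leaving out array 2 of thymus Tconv ended that of Gsn too (adjusted p = 0.0624). The 5 other probe sets of Timp2 gave changes of -1.21, -0.86, -0.35, -0.08 and 0.12 (log2) in the same comparison.

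In LN, 0 of the 25 were called between Treg and Tconv by limma, where 4.38% of genes tested were called, and 2 had an unadjusted p under 0.05. The share of all genes at that unadjusted threshold was not counted. Gsn was the nearest, with 396, 392 and 542 in LN Treg and 966, 1008 and 1145 in LN Tconv and no overlap (log2 -1.24 ± 0.36 SE, adjusted p = 0.063). With the replicate block it was called as lower in Treg (adjusted p = 2.6e-05), where 2.46% of genes tested were lower. Timp2, which was lower in Treg in thymus, had 1856, 1744 and 1087 in LN Treg and 1616, 1457 and 1332 in LN Tconv (log2 0.06, adjusted p = 0.992). Thy1, the gene lower in fat Treg, had 1976, 1498 and 1049 in LN Treg and 2294, 1898 and 2039 in LN Tconv (log2 -0.50, adjusted p = 0.41).

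**Figure D5:**
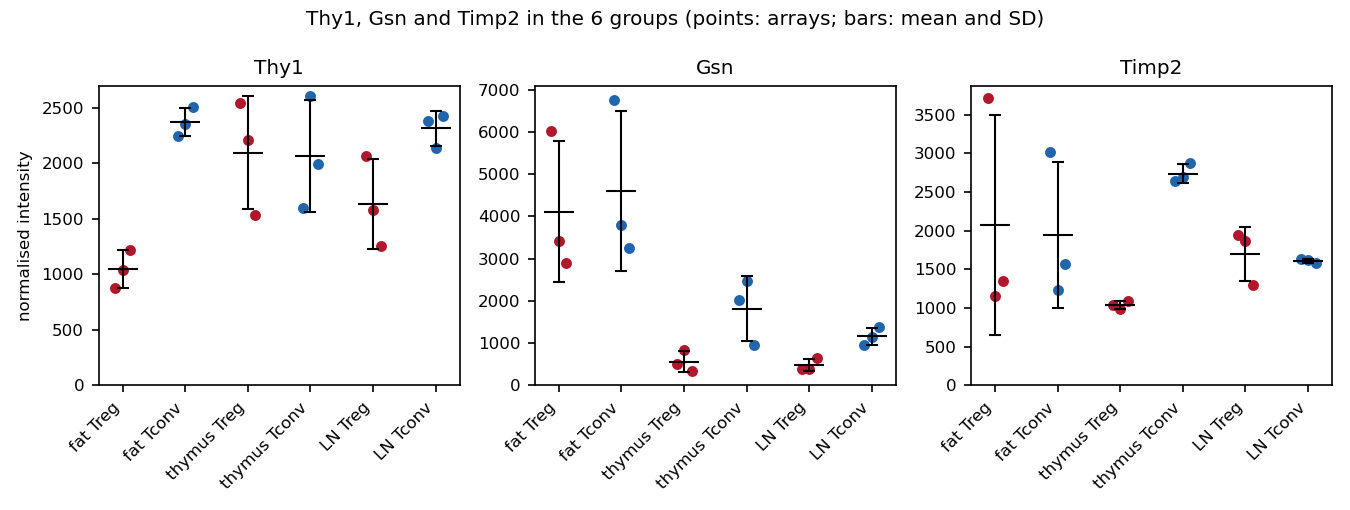
Normalised intensity (y axis) of Thy1, Gsn and Timp2 in each array of the 6 groups (x axis); points are arrays, red for Treg and blue for Tconv, and bars give the mean and SD (n = 3). Thy1 is lowest in fat Treg, Gsn in Treg lies below Tconv with no overlap in thymus and LN while the groups overlap in fat, and Timp2 is lower in Treg than in Tconv in thymus.

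Whether the Treg effect itself differed between tissues was tested as an interaction. For fat minus LN, 0 of the 25 were called by limma, where 4.92% of genes tested were called, and 3 had an unadjusted p under 0.05. The share of all genes at that unadjusted threshold was not counted, for this contrast or for thymus minus LN. Without array 2 of fat Treg, Col4a1 was called as higher in fat (adjusted p = 0.0098). With the replicate block 5 were called, all higher in fat, where 4.71% of genes tested were higher: Gsn (log2 1.14 ± 0.16 SE, adjusted p = 0.000764), Sparc (0.84, adjusted p = 0.00664), Col4a1 (1.08, adjusted p = 0.0228), Col1a2 (0.60, adjusted p = 0.0257) and Fn1 (0.60, adjusted p = 0.0341). For Gsn this difference came with a lower level in Treg than in Tconv of LN. For Col4a1 the difference included a Treg effect of -0.40 in LN, where all arrays of this gene lay below the intensity floor. The other probe set of Col4a1 had Treg effects of only 0.02 in fat and -0.09 in LN. That of Fn1, a dim one, had Treg effects of 0.04 in fat and 0.15 in LN. For thymus minus LN, 0 were called by limma, where 0.304% of genes tested were called, and 1 had an unadjusted p under 0.05. With the block Timp2 was called (log2 -1.40 ± 0.21 SE, adjusted p = 0.00946), where 0.647% of genes tested were lower.

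Features outside the rule were shared by some of the genes. Col3a1 and Col5a2 on chromosome 1, Col6a2 and Col6a1 on chromosome 10, Dcn and Lum on chromosome 10, and Col4a1 and Col4a2 on chromosome 8 are direct neighbours, with 0 protein-coding genes between them. Of the 34 measured genes, 18 had more than 1 probe set. Of their 34 further probe sets, 13 were at least 2-fold higher in fat Treg, 11 were at least 2-fold higher in fat Tconv and 0 were at least 2-fold lower in either. With the mean of all probe sets of a gene, the change in Treg was 7.08-fold for Dcn, 10.1-fold for Col3a1, 5.23-fold for Col4a1, 3.09-fold for Col1a2 and 2.02-fold for Fn1, and all 5 were still called. In Tconv it was 5.68-fold for Dcn, 7.32-fold for Col3a1, 3.53-fold for Col4a1, 2.36-fold for Col1a2, 1.74-fold for Fn1 and 1.75-fold for Col6a2, and all 6 were still called. A second probe set of Col1a1 showed no change (0.00 in Treg and -0.02 in Tconv, log2), and a further one of Car3 differed by 2.19 and 1.94. The other probe set of Fn1, dim in every group, differed by -0.16 and 0.00. The probe set used here for Gsn is of a type that can bind other transcripts. Of the 5 other probe sets of Gsn, 4 had fat Treg above LN Treg by 1.11 to 3.99, and 1 differed by -0.25.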

How the data were processed

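Labelled RNA of each pool was hybridised to 1 array. The deposited values are probe set intensities on a linear scale, which the authors made with RMA in GenePattern, per the series' design text (versions not given in the sources used here). RMA corrects background, normalizes by quantiles and sums up probes, and the sources do not say which arrays were normalized together. Depth does not apply to arrays, and precision is set by the 3 arrays of a group.

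Of 45101 probe sets, 64 were controls, 34945 had 1 gene symbol, 932 several and 9160 none in the platform annotation. After the filter (1 of 6 group means above log2 6.04, the median of all values), 12834 genes were tested; counts of fat over LN over all measured genes come from the fit with no filter, one of the alternatives, used for these counts after seeing which genes passed through fat alone. Group means of log2 intensity over all 18 arrays were fitted by lmFit and moderated by eBayes of limma 3.58.1 (R 4.3.3; 12 residual and 4.74 prior degrees of freedom), and p-values were adjusted by Benjamini-Hochberg over all genes tested. Treg and Tconv were compared as deposited, and fat with LN after quantile normalization of all 18 arrays. The fit was tested on simulated data. Same-numbered Treg and Tconv arrays of a tissue deviated together from their group means (r of 0.36 to 0.68 in 9 of 9 pairs), so the fit with that number as a block is printed where it changes a call. Genes are given with every array's value where they passed the test in fat, and otherwise by ranges, except Timp2, which passed in thymus, and Vwf, Adipoq, Retn and Igfbp7, chosen after their values were seen; up to 3 called genes in each direction are named from the lists of other matrix, endothelial, mesothelial and epithelial, adipocyte, pericyte, T cell, macrophage, B cell, NK and red cell genes. The 36 genes and the lists were chosen with earlier results of these data known. Array runs are stretches of array numbers in the labels with gaps of at most 20. Sequences are RefSeq's (GRCm38.p6). Alternatives were the scale, the filter, the run and replicate blocks, an intensity floor of 28.3, the mean of all probe sets, a trended prior, the groups compared alone, each array left out, and the fat pair numbered 1 left out, which was chosen after seeing the data, as was the contrast of thymus with LN effects.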

Additional observations from a re-analysis of the deposited data

Results flagged for a closer look

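The Treg effect, the log2 level in Treg minus that in Tconv, differed between tissues for 6 genes by a test of the difference itself with the array number as a block, and for none of them in the fit of all arrays without that block. In fat minus LN it was higher by 1.14 for Gsn, 1.08 for Col4a1, 0.84 for Sparc, 0.60 for Fn1 and 0.60 for Col1a2. In thymus minus LN it was -1.40 for Timp2. Without the block, the adjusted p of the 5 genes in fat minus LN was 0.304 for Gsn, 0.188 for Col4a1, 0.473 for Sparc, 0.706 for Fn1 and 0.777 for Col1a2, and that of Timp2 in thymus minus LN was 0.688. In single alternatives without the block, Timp2 was called with the thymus and LN arrays alone (adjusted p = 0.0423) and Col4a1 without array 2 of fat Treg (adjusted p = 0.0098). The other probe set of Fn1, a dim one, had Treg effects of 0.04 in fat and 0.15 in LN. The difference of Col4a1 included a Treg effect of -0.40 in LN, where all arrays of this gene lay below the intensity floor. The other probe set of Col4a1 had Treg effects of only 0.02 in fat and -0.09 in LN.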

How the results depend on the processing

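In fat over LN, the count of called genes stayed within 1.5 times of that reported under every alternative run. It was 14 to 25 in Treg, against 21, and 12 to 22 in Tconv, against 18, with 18 to 22 and 15 to 19 when 1 array was left out. The number of genes tested and the share of all genes called differed between alternatives, so these ranges are a description only. With no filter, all 34 measured genes were tested. There 13.4% of all genes were higher in Treg and 8.77% in Tconv, against 16.3% and 11.3% with the filter. The number shared by fat and LN arrays did not pair them (r of -0.43 to 0.09), and as a replicate block it gave 20 and 17. In Treg, 18 of 21 calls held in every alternative in which the gene was tested (Col6a1, Thy1 and Upk3b were lost in some), and in Tconv 13 of 18 (Col15a1, Col1a1, Col4a2, Col6a2 and Tek were lost in some). Igfbp7 turned round with the mean of all probe sets, to 0.92 in Treg (adjusted p = 6.34e-05) and 0.50 in Tconv (adjusted p = 0.0134), since its probe sets disagreed. For fat Treg over fat Tconv, 1 was called, against 8 with the replicate block, 2 without the fat pair numbered 1, and 1 to 2 when 1 array was left out; the call of Thy1 held throughout. For thymus, 2 were called, against 1 with the mean of probe sets, 1 without a filter, 1 with the thymus arrays alone, and 0 to 1 when 1 array was left out; the replicate block gave 2. For LN, 0 were called, against 1 with the mean of probe sets, 1 with the LN arrays alone, 1 with the stricter filter and 1 with the replicate block, and 0 when any 1 array was left out. For the Treg effect in fat minus LN, 0 were called, against 5 with the replicate block and 0 to 1 when 1 array was left out. For thymus minus LN, 0 were called, against 1 with those arrays alone, 1 with the replicate block, and 0 when any 1 array was left out. The cause of these changes was not tested. A median of all genes of 0.37 (log2) in Treg and 0.33 in Tconv between fat and LN, present in the intensities as deposited, was 0.01 and -0.03 after normalization. Dim probe sets near the median of all values limit what can be said of the 9 genes below the filter.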
